A study of Sus scrofa with 6 samples.

Results

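The transcripts described here encode the machinery that brings proteins and metabolites into mitochondria and shapes these organelles. They were measured in mature pig oocytes on 6 Affymetrix arrays, 3 from adult females (sows) and 3 from prepubertal females (gilts). Members were the probe sets whose single platform gene symbol belongs to the TOMM, TIMM, SLC25A, VDAC, CHCHD, prohibitin or mitofusin families, or is SAMM50, OPA1, FIS1, DNM1L, TFAM or IMMT, with SLC25A20 left out. This gave 71 probe sets for 52 genes, out of 24123 probe sets on the array and 6765 genes with a single symbol. By role, 19 genes act in protein import, 23 are carriers or channels, and 10 belong to mitochondrial dynamics, the inner membrane and mitochondrial DNA. No member matched for the mitofusins, OPA1, SAMM50, TOMM40, TIMM23 or the prohibitin PHB, which were not analysed here.

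Both groups were eggs from follicles of 2 to 6 mm, cultured for 42 to 44 h until metaphase II, freed of cumulus cells with hyaluronidase and vortexing, and checked for a polar body. The labels call the adult eggs developmentally competent and the prepubertal ones incompetent. They name 3 biological replicates a group without saying how many eggs or animals stood behind each, so the p-values cover the spread among these arrays alone, which may be technical. The labels name no treatment or genotype that separated the groups.

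Most mitochondrial proteins are made in the cytosol and enter through the TOM complex of the outer membrane. From there the TIM23 complex moves proteins with a presequence into the matrix, while small TIM chaperones hand carriers to the TIM22 complex for insertion into the inner membrane. Those carriers, the SLC25A family, pass nucleotides, phosphate, iron and organic acids across the inner membrane, and VDAC channels let them cross the outer one. The egg supplies the mitochondria of the early embryo, and in mature oocytes they are known to be small and round.

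The arrays stood at different overall levels: their 2% trimmed mean signals were 123 to 161 in adult and 106 to 132 in prepubertal oocytes. Over all 12000 tested probe sets the log2 difference, prepubertal minus adult, had a median of −0.20 as deposited. It was −0.01 after quantile normalization, which gives all arrays 1 distribution. Both scales are given below, and a difference near −0.20 on the deposited scale is the shift that the typical tested probe set shows. The change between the scales varied by probe set, from −0.44 to −0.16 for 1 of VDAC1 and from −0.75 to −0.66 for 1 of SLC25A37. The value of −0.20 is therefore not a fixed offset for each member. All 7 measured oocyte markers of 12 listed were tested, with a summed signal of 23681 to 25204 in adult and 21855 to 25875 in prepubertal oocytes (exact permutation p = 0.6, 2-sided). KPNA7 and H1FOO led that sum, so it says little of the dimmer markers. The 13 measured cumulus and granulosa genes of 14 listed summed to 396 to 522 and 346 to 436 (exact permutation p = 0.2), with FSHR, STAR and AMH at 9.44 or less on every array, while FST, INHBA and INHA reached 154, 135 and 61.6. Blood and immune markers summed to 269 to 479 and 147 to 400 (exact permutation p = 0.4), led by the globin gene HBB. Theca and stroma markers summed to 93.8 to 141 and 76.9 to 107 (exact permutation p = 0.3), and endothelial ones to 130 to 151 and 112 to 139 (exact permutation p = 0.5). After amplification in 2 cycles, log2 ratios of 3′ to 5′ probe sets do not measure RNA integrity alone. These ratios were 7.64 to 8.28 in adult and 7.33 to 8.04 in prepubertal oocytes for ACTB. For GAPDH they were 2.96 to 3.52 and 2.47 to 3.07, and for EEF1A1 4.82 to 5.82 and 4.77 to 5.42. Signal of these 3 genes thus lay far toward the 3′ end on every array, and the groups overlapped (exact permutation p = 0.7, 0.2 and 0.9). With 3 arrays against 3 these tests cannot give a p below 0.1, and the part of these values in the results below was not tested.

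In prepubertal oocytes 1 member fell and none rose. The import cofactor TOMM34 was 2.22-fold lower, and the other 44 tested member probe sets did not pass an adjusted p of 0.05 in limma, which fits every tested probe set together and adjusts over all of them. Tested means a mean log2(signal + 16) of at least 5.00, a signal of about 16, over the 6 arrays. The background was 0.442% of all tested probe sets called lower and 0.0333% called higher. After quantile normalization 0 members passed, against a background of 0.117%, of which 0.0917% lower and 0.025% higher.

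At an unadjusted p under 0.05, limma gave 7 members lower and 0 higher as deposited, where 13.6% of all tested probe sets were lower and 1.14% higher. After quantile normalization it gave 3 lower and 3 higher, where the background was 5.79% and 5.06%. The groups did not overlap, with prepubertal values lower, for 12 of 45 members as deposited (26.7%; background 17.1%). They did so with higher values for 1 (background 1.81%). After quantile normalization these counts were 5 of 45 lower (background 8.77%) and 6 higher (background 7.54%). Both lower counts include SLC25A37, TIMM50 and a DNM1L probe set, with prepubertal mean signals of 9.8, 9.7 and 12.8. These lay under the filter's signal of about 16, so the 3 probe sets were tested only through their higher adult signals.

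Of the 45 tested members, 34 had a log2 difference below 0 as deposited (75.6%; background 74.8%) and 26 after quantile normalization (57.8%; background 51.1%). The median of the members was −0.26 as deposited and −0.06 after quantile normalization, beside −0.20 and −0.01 for all tested probe sets. By role it was −0.15 and −0.06 for 15 import probe sets, −0.38 and −0.16 for 20 of carriers and channels, and −0.20 and −0.02 for 10 of dynamics, inner membrane and TFAM. With the untested members included, the medians as deposited were −0.26 for import, −0.19 for carriers and −0.17 for dynamics, beside −0.11 over all probe sets, so the order of import and carriers depended on the filter. The plot of differences by function shows the spread within each role. A member that missed the threshold is not thereby shown to be equal in both groups.

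**Figure D1:**
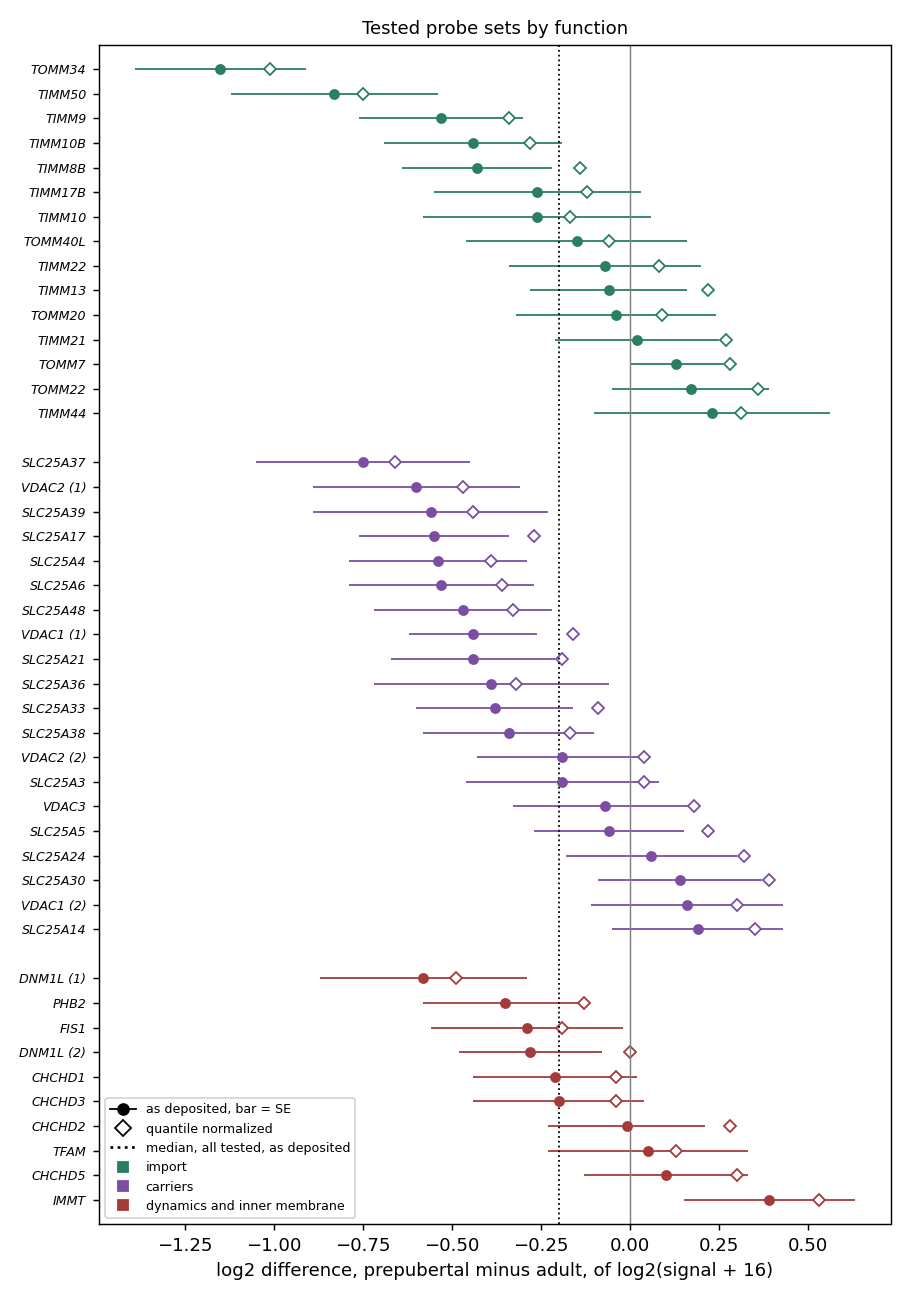
Log2 difference, prepubertal minus adult, on the log2(signal + 16) scale for each of the 45 tested member probe sets, as deposited with its SE (filled) and after quantile normalization (open), with numbers in brackets where a gene had 2 tested probe sets. TOMM34 lies lowest at −1.15, IMMT highest at 0.39, and the dotted line marks −0.20, the deposited median over all tested probe sets.

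Import opens in the cytosol, where TOMM34 binds the chaperones HSP70 and HSP90 and helps to keep precursor proteins fit for import. Its signals were 83.1, 66.0 and 73.3 in adult oocytes and 23.1, 19.5 and 31.9 in prepubertal oocytes. Every prepubertal array lay below every adult array, and the means were 74.2 ± 8.60 and 24.8 ± 6.36 (SD, n = 3 arrays each). The log2 difference was −1.15 ± 0.24 (SE), with a limma adjusted p of 0.0301. The constant of 16 added before the log makes the fold smaller than the ratio of the mean signals, since these are low. From TOMM34 alone, fewer eggs and less of the transcript per egg cannot be told apart in bulk samples. On the same arrays the oocyte markers had mean signals, adult and prepubertal, of 1568 and 1657 for ZP2, 2636 and 2544 for ZP4, 4733 and 4591 for H1FOO, 14376 and 14096 for KPNA7, 169 and 195 for BMP15, 543 and 429 for ZP3, and 360 and 231 for GDF9.

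The TOMM34 call depended on the scale and on single arrays, while its direction did not. After quantile normalization the log2 difference was −1.01 (adjusted p = 0.0787), again without overlap between the groups. Without adult replicate 1, 2 or 3 the adjusted p was 0.215, 0.108 or 0.107, and without prepubertal replicate 2 it was 0.0983. Without prepubertal replicate 1 or 3 it was 0.0091 or 0.0351. Over 23 alternative settings the difference ranged from −1.56 to −0.90 and passed in 6, as the plot of TOMM34 under each setting shows. The count of calls over all probe sets moved in the same way: 57 as deposited, 6, 3 or 16 without adult replicate 1, 2 or 3, and 658, 20 or 35 without prepubertal replicate 1, 2 or 3.

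**Figure D2:**
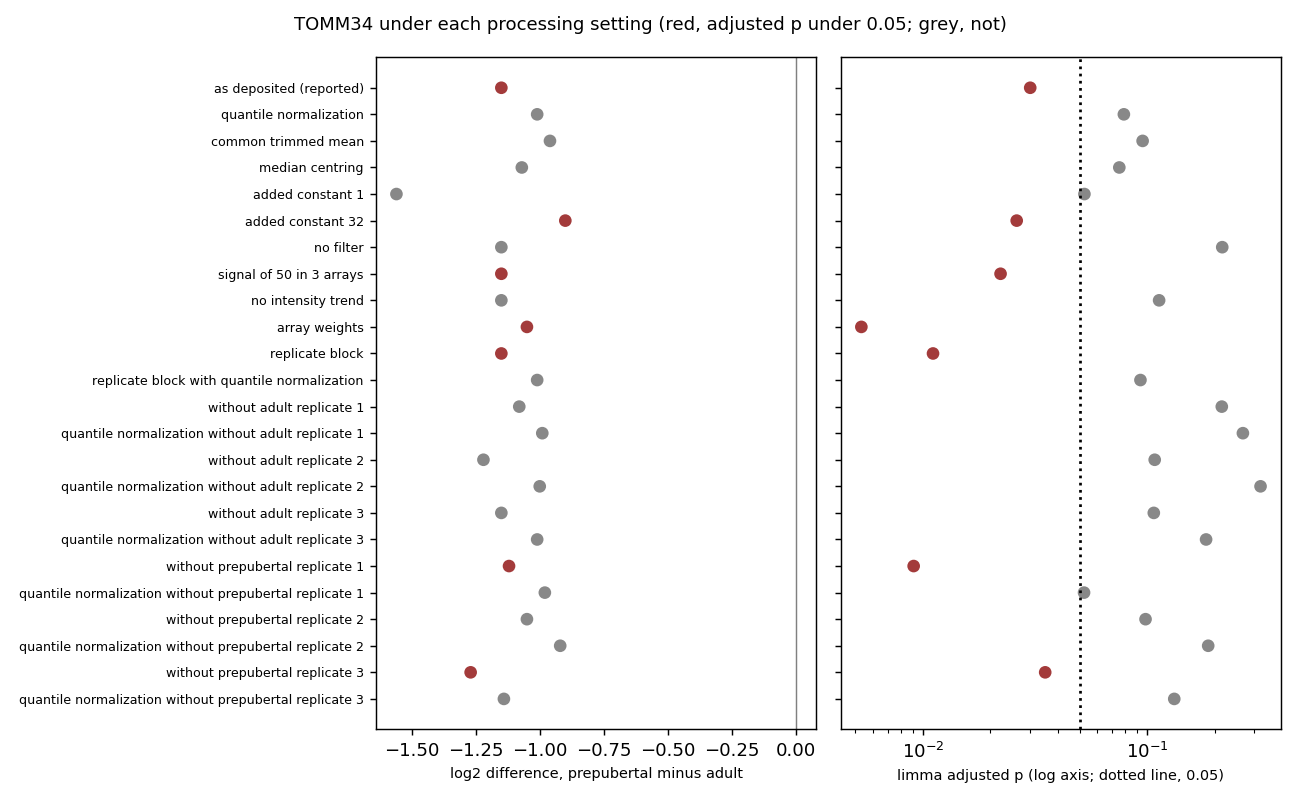
The log2 difference of TOMM34, prepubertal minus adult (left), and its limma adjusted p on a log axis (right), for the deposited values and 23 alternative settings, 1 row each. The difference stays between −1.56 and −0.90, while the adjusted p ranges from 0.00532 to 0.32 and crosses the dotted line at 0.05.

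The tested receptors and subunits of the TOM complex had log2 differences from −0.15 to 0.17, and none passed the test. TOMM7, a small subunit that modulates the stability of the complex, had signals of 6730, 6671 and 6806 in adult and 8083, 6692 and 7382 in prepubertal oocytes. The adult arrays were nearly level and 1 prepubertal array lay among them, so the groups overlapped as deposited (log2 difference 0.13 ± 0.13 SE, limma adjusted p = 0.675). After quantile normalization the groups no longer overlapped and the difference was 0.28 (adjusted p = 0.253).

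TOMM22, a receptor that also organizes the pore, had 88.1, 86.0 and 99.1 against 119, 96.0 and 99.0. Only prepubertal replicate 1 stood above all adult arrays (log2 difference 0.17 ± 0.22, limma adjusted p = 0.754; 0.36 and 0.484 after quantile normalization, then without overlap). TOMM20, the receptor for presequences, had 54.8, 59.2 and 20.3 in adult and 41.0, 35.5 and 44.3 in prepubertal oocytes. Its adult arrays disagreed, with replicate 3 lowest of all 6, and the log2 difference was −0.04 ± 0.28 (adjusted p = 0.961), with the other sign after quantile normalization (0.09). TOMM40L, related to the pore protein, had a log2 difference of −0.15 ± 0.31. TOMM70, the receptor for carrier precursors, and TOMM5 were too dim to be tested. TOMM70 signals were 16.6, 6.50 and 7.76 in adult and 7.87, 14.3 and 1.98 in prepubertal oocytes.

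The tested subunits of the TIM23 complex, which moves presequence proteins into the matrix, had differences of both signs, and none passed the test. As deposited, the differences above 0 were smaller than their SE. TIMM50, its receptor in the intermembrane space, had signals of 29.1, 35.3 and 24.4 in adult and 6.85, 11.9 and 10.4 in prepubertal oocytes. All prepubertal arrays were lower, at low signals, and the log2 difference of −0.83 ± 0.29 did not pass (limma adjusted p = 0.217; −0.75 and 0.326 after quantile normalization). The prepubertal mean of 9.7 lay under the filter's signal of about 16, which this probe set reached through its adult arrays. A second TIMM50 probe set was untested, at 36.2, 4.95 and 4.53 against 9.85, 2.48 and 3.07, where only adult replicate 1 stood out.

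TIMM44, which tethers the import motor to the channel, had 13.6, 13.3 and 15.2 against 27.7, 30.0 and 5.72. The prepubertal arrays lay on both sides of the adult ones (log2 difference 0.23 ± 0.33, limma adjusted p = 0.775), and 2 further TIMM44 probe sets were untested, with mean signals under 10. TIMM21, another subunit, had the same mean signal of 211 in both groups (log2 difference 0.02 ± 0.23). After quantile normalization its difference was 0.27, with every prepubertal array higher (limma adjusted p = 0.53). TIMM17B, of the channel, differed by −0.26 ± 0.29. TIMM22, the core of the carrier translocase, differed by −0.07 ± 0.27, and by 0.08 after quantile normalization.

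Among the small TIM chaperones, which escort carriers through the intermembrane space, 2 had all prepubertal arrays below all adult arrays as deposited. TIMM9 had signals of 116, 131 and 142 in adult and 101, 91.6 and 65.6 in prepubertal oocytes. The log2 difference was −0.53 ± 0.23 (limma adjusted p = 0.301), and after quantile normalization it was −0.34, with overlap. TIMM8B had 532, 475 and 506 against 372, 401 and 343. Its log2 difference was −0.43 ± 0.21 (adjusted p = 0.358), and −0.14 with overlap after quantile normalization. TIMM13, the partner of TIM8 proteins, had 446, 361 and 361 against 380, 350 and 384, so its groups overlapped (log2 difference −0.06 ± 0.22, and 0.22 after quantile normalization). TIMM10 and TIMM10B had log2 differences of −0.26 ± 0.32 and −0.44 ± 0.25. TIMM8A and CHCHD4, the oxidoreductase that folds small TIM proteins, were untested.

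**Figure D3:**
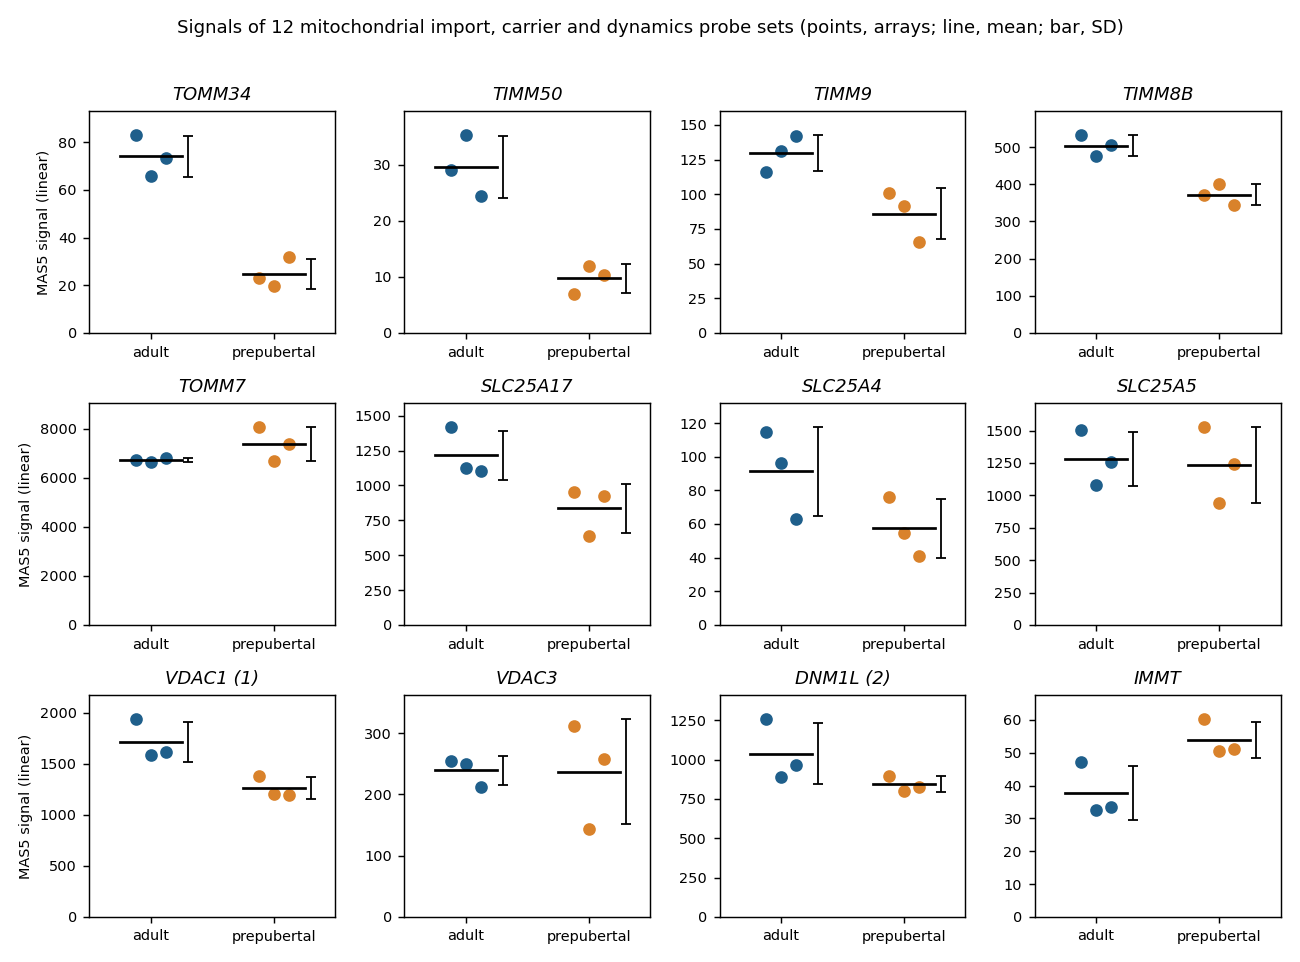
MAS5 signal on a linear axis from 0 for 12 member probe sets, with 3 points for the arrays of each group, a line at the mean and a bar for the SD; numbers in brackets follow the plot of differences by function. TOMM34, TIMM50, TIMM9, TIMM8B, SLC25A17 and VDAC1 (1) have every prepubertal array below every adult array, IMMT has every one above, and TOMM7, SLC25A4, SLC25A5, VDAC3 and DNM1L (2) overlap.

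Carriers were the largest role, with 15 of 26 SLC25A probe sets tested, 0 of them called (3 lower and 0 higher at an unadjusted p under 0.05 in limma, backgrounds 13.6% and 1.14%; after quantile normalization 1 lower and 1 higher, backgrounds 5.79% and 5.06%). Of the 15, 12 had values below 0 as deposited, and 6 were lower without overlap (40%, background 17.1%). After quantile normalization 10 were below 0, and 2 were lower and 2 higher without overlap (backgrounds 8.77% and 7.54%).

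The adenine nucleotide translocases exchange ADP for ATP across the inner membrane. SLC25A4 had signals of 115, 96.1 and 62.8 in adult and 76.3, 54.8 and 41.2 in prepubertal oocytes, with adult replicate 3 among the prepubertal values (log2 difference −0.54 ± 0.25, limma adjusted p = 0.325). SLC25A6 had 140, 84.9 and 69.4 against 82.5, 58.2 and 44.4, also with overlap (−0.53 ± 0.26, adjusted p = 0.345). SLC25A5 had 1501, 1081 and 1258 against 1525, 941 and 1243, with overlap (−0.06 ± 0.21, adjusted p = 0.911). After quantile normalization these were −0.39, −0.36 and 0.22. These paralogs are closely alike in sequence, so which of them each probe set reads is uncertain.

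The log2 ratio of SLC25A4 to SLC25A5 within an array, which compares both on the same RNA, differed by −0.48 between the groups, and that of SLC25A6 to SLC25A5 by −0.47 (exact permutation p = 0.2 each, 2-sided; 0.32 adjusted over 8 such ratios). SLC25A4 over SLC25A6 differed by −0.01 (p = 1, exact permutation). The ratio of TIMM8B to TIMM13 was 0.25, 0.38 and 0.47 in adult and −0.03, 0.19 and −0.16 in prepubertal oocytes, without overlap. Its difference of −0.37 had the smallest p this design allows (exact permutation p = 0.1; 0.267 adjusted over the 8). TIMM9 over TIMM10 and VDAC1 over VDAC3 differed by −0.27 and −0.37 with overlap (exact permutation p = 0.4 each). These 8 ratios were chosen after the values were seen.

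SLC25A17 is a carrier of the peroxisome, not of mitochondria, and had signals of 1420, 1127 and 1105 in adult and 951, 634 and 921 in prepubertal oocytes. All prepubertal arrays were lower, replicate 2 the most (log2 difference −0.55 ± 0.21, limma adjusted p = 0.251), but the groups overlapped after quantile normalization (−0.27, adjusted p = 0.498). SLC25A37, mitoferrin, which imports iron, had 23.3, 22.2 and 38.0 against 12.5, 7.43 and 9.45. Its groups did not overlap on either scale (−0.75 ± 0.30, adjusted p = 0.267; −0.66 and 0.40 after quantile normalization), though the signals were low. The prepubertal mean of 9.8 lay under the filter's signal of about 16, so this probe set was tested only through its adult arrays. A second SLC25A37 probe set was untested, with means of 10.5 and 5.76.

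SLC25A30, related to the uncoupling proteins, was the tested carrier with the highest difference after quantile normalization. Its signals were 311, 218 and 234 in adult and 288, 272 and 275 in prepubertal oocytes. Adult replicate 1 lay above all prepubertal arrays and the other adult arrays below them (log2 difference 0.14 ± 0.23, limma adjusted p = 0.807). After quantile normalization every prepubertal array was higher (0.39, adjusted p = 0.375). SLC25A14, also of the uncoupling group, differed by 0.19 ± 0.24, and SLC25A24, which exchanges ATP-magnesium for phosphate, by 0.06 ± 0.24. After quantile normalization SLC25A14 was at 0.35 with overlap (limma adjusted p = 0.557). SLC25A24 was then at 0.32, with every prepubertal array higher (limma adjusted p = 0.497).

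The other tested carriers had values below 0 as deposited. SLC25A21, which carries oxodicarboxylates, had mean signals of 197 and 139 (log2 difference −0.44 ± 0.23), and SLC25A21 was lower without overlap on both scales. SLC25A33 and SLC25A36, pyrimidine nucleotide carriers, differed by −0.38 ± 0.22 and −0.39 ± 0.33. SLC25A38, linked to glycine import for haem, SLC25A39, which takes up glutathione, and SLC25A48 differed by −0.34 ± 0.24, −0.56 ± 0.33 and −0.47 ± 0.25. SLC25A3, the phosphate carrier, differed by −0.19 ± 0.27, close to the median of all tested probe sets. The adjusted p of these 7 carriers lay between 0.38 and 0.777 in limma, and after quantile normalization their differences ran from −0.44 to 0.04.

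VDAC channels form the main pore of the outer membrane for metabolites. The brighter VDAC1 probe set had signals of 1942, 1588 and 1622 in adult and 1385, 1201 and 1195 in prepubertal oocytes, without overlap. Its log2 difference was −0.44 ± 0.18 (limma adjusted p = 0.28), and −0.16 with overlap after quantile normalization. The other VDAC1 probe set had 83.5, 44.3 and 33.2 against 71.7, 58.7 and 46.5 and differed by 0.16 ± 0.27, so VDAC1 had no single direction. The log2 ratio of the brighter to the other differed by −0.60 without overlap (exact permutation p = 0.1; 0.267 adjusted over the 8 ratios).

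VDAC3 had 255, 250 and 212 in adult and 311, 143 and 258 in prepubertal oocytes. The prepubertal arrays spread around the adult ones (log2 difference −0.07 ± 0.26; 0.18 after quantile normalization). Of 5 VDAC2 probe sets 2 were tested. One had 52.2, 74.2 and 61.4 against 60.1, 44.7 and 13.8, with prepubertal replicate 3 far below the rest (−0.60 ± 0.29, limma adjusted p = 0.346), and without that array the difference was −0.20. The other had 180, 108 and 119 against 118, 117 and 108 (−0.19 ± 0.24; 0.04 after quantile normalization).

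Of the dynamics genes, DNM1L encodes the GTPase that constricts mitochondria during fission. The DNM1L probe set numbered 1 in the plot of differences had signals of 35.6, 25.4 and 21.1 in adult and 16.5, 10.5 and 11.3 in prepubertal oocytes. It was lower without overlap on both scales, at a log2 difference of −0.58 ± 0.29 (limma adjusted p = 0.359) and −0.49 after quantile normalization. Its prepubertal mean of 12.8 lay under the filter's signal of about 16, which it reached through its adult arrays. The probe set numbered 2 had 1258, 888 and 968 against 898, 802 and 828, with overlap (−0.28 ± 0.20, adjusted p = 0.53; 0.00 after quantile normalization). Their ratio differed by −0.30 without overlap (exact permutation p = 0.1, or 0.267 adjusted over the 8 ratios). This ratio was chosen after the values were seen. Its first probe set passed the filter through its adult arrays, which favours a lower prepubertal ratio. FIS1, an outer membrane adaptor of fission, had 36.8, 30.5 and 38.0 against 39.3, 20.2 and 20.2. Prepubertal replicate 1 was its highest array and the other prepubertal arrays its lowest (−0.29 ± 0.27, adjusted p = 0.639).

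IMMT, the MICOS subunit that holds crista junctions open, was the 1 member with higher values without overlap as deposited. Its signals were 47.2, 32.6 and 33.5 in adult and 60.3, 50.6 and 51.1 in prepubertal oocytes. The log2 difference was 0.39 ± 0.24 (limma adjusted p = 0.456) and 0.53 after quantile normalization (adjusted p = 0.355), the largest positive value among the 45 tested members on both scales, without passing on either. CHCHD3, another MICOS subunit, differed by −0.20 ± 0.24. PHB2, a scaffold of the inner membrane, had 157, 101 and 120 against 108, 90.0 and 85.2, with overlap (−0.35 ± 0.23, adjusted p = 0.498; −0.13 after quantile normalization).

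CHCHD2, a protein of the intermembrane space, had 859, 809 and 858 in adult and 1133, 633 and 811 in prepubertal oocytes. The adult arrays were close together and the prepubertal arrays spread widely around them (log2 difference −0.01 ± 0.22; 0.28 after quantile normalization). CHCHD1, of the mitochondrial ribosome, and CHCHD5 differed by −0.21 ± 0.23 and 0.10 ± 0.23. TFAM packages and transcribes mitochondrial DNA, and 1 of its 4 probe sets was tested. It had 20.8, 21.9 and 26.4 against 32.1, 20.2 and 21.4, with overlap (0.05 ± 0.28, limma adjusted p = 0.956; 0.13 after quantile normalization). Prepubertal replicate 1 was the highest TFAM array and the remaining 5 lay together.

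The medians of each role on each array are given as a description, without a test between roles. Against the adult mean, the median deviation of carriers on the log2 scale was −0.13, −0.52 and −0.28 on prepubertal replicates 1, 2 and 3, where all tested probe sets had −0.09, −0.28 and −0.21. For import it was −0.20, −0.16 and −0.01, and for dynamics and inner membrane −0.07, −0.33 and −0.08. After quantile normalization carriers stood at −0.02, −0.18 and −0.06 and import at −0.09, 0.10 and 0.18, while the adult arrays ranged from −0.09 to 0.07 for carriers and from −0.10 to 0.09 for import. Prepubertal replicate 1 held the highest prepubertal signal for 28 of 45 members (62.2%), and for 52.4% of all tested probe sets.

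**Figure D4:**
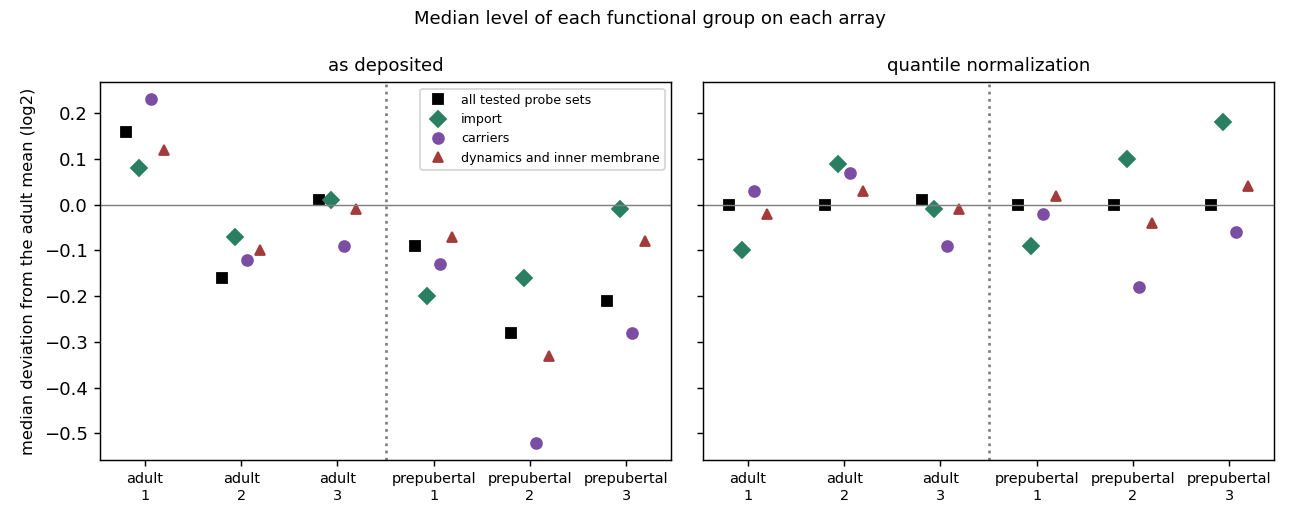
Median deviation from the adult mean, in log2 units, of all tested probe sets and of the members of each role, on each of the 6 arrays, as deposited (left) and after quantile normalization (right). As deposited carriers lie lowest on prepubertal replicate 2 at −0.52, and after quantile normalization all medians lie between −0.18 and 0.18.

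The 26 untested member probe sets had mean signals of 2.69 to 16.3 over the 6 arrays. They covered 21 genes, of which 11 had another probe set that was tested. The 10 genes with no tested probe set were TOMM5, TOMM70, TIMM8A, CHCHD4, CHCHD10, SLC25A1, SLC25A11, SLC25A12, SLC25A46 and SLC25A51. These include the citrate carrier SLC25A1, the oxoglutarate carrier SLC25A11 and the aspartate-glutamate carrier SLC25A12.

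Other genes of mitochondrial import, processing, proteases, fission and DNA maintenance, and cytosolic chaperones listed with import, stood outside the member families. Of their 61 tested probe sets, for 47 genes, 0 passed in limma as deposited, with 13 lower and 0 higher at an unadjusted p under 0.05 (backgrounds 13.6% and 1.14%) and a median log2 difference of −0.29, beside −0.20 over all tested probe sets. After quantile normalization 0 of 60 passed, with 6 lower and 3 higher at an unadjusted p under 0.05 (backgrounds 5.79% and 5.06%) and a median of −0.08, beside −0.01. Import chaperones and processing enzymes had medians of −0.33 and −0.11 (31 probe sets), proteases and quality control −0.30 and −0.08 (9), and fission, fusion and motility factors −0.31 and −0.11 (8). DNA maintenance and transcription had −0.17 (6) and 0.09 (5), and further inner membrane transport −0.13 and 0.11 (7). The 31 probe sets of import chaperones and processing stood for 20 genes. They include the general cytosolic chaperones HSP90AA1, HSP90AB1, HSPA8 and DNAJA1, most of them with several probe sets. The median of −0.33 and the counts over all 61 are therefore not of mitochondrial proteins alone.

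As deposited, the smallest p in these lists belonged to MTFR1L, related to the fission regulators, with signals of 770, 498 and 464 in adult and 396, 290 and 294 in prepubertal oocytes. Its groups did not overlap (log2 difference −0.77 ± 0.24, limma adjusted p = 0.165; −0.49 and 0.291 after quantile normalization). After quantile normalization the smallest adjusted p was that of PMPCB, a subunit of the presequence protease, with a higher value (0.48, limma adjusted p = 0.271; 0.19 and 0.72 as deposited), named after its values were seen. HSPA9, the matrix HSP70 that drives the import motor, had 457, 334 and 319 against 283, 177 and 210 (−0.70 ± 0.24, adjusted p = 0.204; −0.44 after quantile normalization). A brighter HSPA9 probe set differed by −0.40 ± 0.15. The cytosolic chaperone gene HSP90AA1 had 4123, 3182 and 3842 against 2758, 2692 and 2551 (−0.47 ± 0.16, adjusted p = 0.203; −0.20 after quantile normalization). Its 4 other tested probe sets differed by −0.51 to 0.27, so HSP90AA1 had no single direction.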

How the data were processed

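The authors deposited MAS5 signal values on a linear scale, 1 for each probe set and array, and MAS5 is named in the submitters' processing notes. Neither version nor scaling target was found in the labels. The labels' protocols describe poly(A) selection and biotin labelling after amplification in 2 cycles, so a signal can also depend on poly(A) tail length. Every value column matched a sample (0 unmatched). Of 23999 non-control probe sets, 10069 had 1 gene symbol in the platform annotation, 198 had several and 13732 were not listed. Symbols were updated by Entrez identifier through RefSeq's table for Sscrofa11.1.

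The comparison used limma 3.58.1 (lmFit, eBayes with an intensity trend; R 4.3.3) on log2(signal + 16), over the 12000 probe sets at or above the median mean level, with Benjamini-Hochberg adjustment over all of them, 2-sided, at 0.05. The constant understates folds of dim genes. The code was checked on simulated data. Named genes were members past the threshold on either scale, the 10 (as deposited) and 6 (quantile) smallest p, the 2 brightest of each role, fixed TOM, TIM, VDAC, dynamics and TFAM genes, and their further probe sets. The remaining tested members are given by their differences. Members, roles and lists were chosen with earlier results of these data known, so the lists carry counts and medians but no test. Alternatives covered the normalization, constant, filter, variance model, pairing and each array left out. The number of arrays limits the precision, and no genome coordinates are given.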

Additional observations from a re-analysis of the deposited data

How the results depend on the processing

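The number of member probe sets past the threshold was 1 as deposited, with an added constant of 32 and with a signal of at least 50 in 3 arrays. It was 0 under quantile normalization, scaling to a common trimmed mean, median centring, an added constant of 1, no filter, no intensity trend, and the replicate block with quantile normalization, where limma gave between 3 and 8 members at an unadjusted p under 0.05 (the range over all 17 settings with 0). It was 4 of 45 with array weights (TOMM34, TIMM9, SLC25A37 and a VDAC2 probe set), where 1259 of all 12000 tested probe sets passed. It was 3 of 45 with the replicate block (TOMM34, SLC25A17 and a VDAC1 probe set), where 918 of 12000 passed. In both settings the share among members was no higher than that over all tested probe sets. Of 12000 tested probe sets, 57 passed as deposited, 14 under quantile normalization, 20 under trimmed-mean scaling and 7 under median centring. Of the same number, 15 passed with a constant of 1, 1 with no intensity trend and 1259 with array weights. The filter settings tested other numbers of probe sets, and there 1 of 23999 passed with no filter and 150 of 7085 with the signal filter. Leaving out each array gave 3 to 658 over all probe sets and 0 to 1 among members, and, in alternatives added after seeing the data, 0 members under quantile normalization. There the counts over all probe sets were 2, 0 (931 at an unadjusted p under 0.05 in limma) and 4 without adult replicate 1, 2 and 3, and 199, 6 and 3 without prepubertal replicate 1, 2 and 3. The median of the members was −0.06 under quantile normalization, −0.02 under trimmed-mean scaling and −0.37 with a constant of 1, the import median was −0.37 with that constant, and the dynamics median was −0.02, 0.00 and −0.12 under quantile normalization, trimmed-mean scaling and median centring. The causes were not tested.

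With the labels' replicate number as a block, 918 probe sets passed as deposited and 32 after quantile normalization, where the medians were −0.06 for members and −0.02 for dynamics. Deviations of same-numbered arrays correlated at 0.11, 0.0584 and 0.0294, and each array correlated best with its own number. These low correlations cannot decide whether the arrays are paired, and the labels do not say.

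Among the 27 tested probe sets of the named genes, which were run under every alternative that kept them, those that did not pass changed sign as follows. Under quantile normalization, with or without the replicate block, TOMM20 was at 0.09, VDAC3 0.18, TIMM13 0.22, SLC25A5 0.22, CHCHD2 0.28 and a VDAC2 probe set 0.04. Of the 18 other tested members, SLC25A3 and TIMM22 changed sign under quantile normalization, to 0.04 and 0.08. Under trimmed-mean scaling the first 6 were 0.14, 0.18, 0.20, 0.20, 0.25 and 0.05. Under median centring the first 5 were 0.04, 0.01, 0.03, 0.02 and 0.07. With array weights TOMM20 was at 0.32, VDAC3 0.03, TIMM13 0.01, TIMM44 −0.09 and TFAM −0.08. Leaving out arrays gave CHCHD2 −0.23 to 0.18, SLC25A5 −0.23 to 0.12, TOMM20 −0.38 to 0.15, VDAC3 −0.29 to 0.23, TIMM13 −0.11 to 0.04, TFAM −0.08 to 0.12, and probe sets of VDAC1 −0.06 to 0.45 and VDAC2 −0.32 to 0.01. The deposited table gives no detection calls, so low signals carry no call of presence.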
